A study of Mus musculus with 4 samples.

Results

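The WNT pathway was followed through 60 genes of the 55487 in the count table: 19 WNT ligands, 10 Frizzled receptors, 5 co-receptors, 9 genes of the R-spondin axis, 12 secreted antagonists and 5 feedback or target genes. They were chosen by name, and each symbol matched a single Ensembl ID of the GRCm38 annotation. Poly(A) RNA came from the skull vault of mouse embryos at E14.5, a stage of embryonic development. The groups were the frontal bone (2 libraries) and the parietal bone together with the interparietal bone, which share their libraries (2 libraries). The labels give the same day for both groups and no strain, genotype, sex, litter or number of embryos, and do not say whether libraries of a group came from separate embryos. The p-values thus reflect sample-to-sample spread alone, and that spread may be technical.

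WNT proteins are secreted, lipid-modified signals that bind a Frizzled receptor together with the co-receptors LRP5 or LRP6. Binding stabilises β-catenin, which enters the nucleus and turns on targets with TCF and LEF factors, while WNTs acting through ROR or RYK receptors steer cell shape and movement. R-spondins strengthen the signal by holding off the ubiquitin ligases ZNRF3 and RNF43, and secreted antagonists weaken it by binding WNTs or LRP5 and LRP6. In the developing skull vault WNT signalling from ectoderm and mesenchyme favours bone over cartilage, and in the neighbouring brain it patterns the dorsal midline of the forebrain and the midbrain-hindbrain boundary.

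Of the 60 members, 59 passed the filter on low counts. The exception was the ligand Wnt8a, with 0 counts in both frontal libraries, against 0 and 2 counts in those of the parietal-interparietal group. In edgeR's quasi-likelihood test, with p-values adjusted over all 20947 genes tested, 6 members were higher and 11 lower in frontal libraries. Called members made up 28.8% of the 59 tested, against 12.7% of all genes tested (6.25% higher and 6.44% lower). Of protein-coding genes averaging 1 CPM or more (counts scaled to the library total, with TMM correction) 16.8% were called. The members had a median level of 15.7 CPM, against 9.78 CPM for all genes tested. Their median log2 fold change, frontal minus parietal-interparietal, was −0.04, against 0.01 for all genes tested.

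The higher members were the ligands Wnt8b, Wnt2b and Wnt7b, the receptor Fzd9 and the agonists Rspo2 and Rspo3. The lower members were the ligands Wnt1, Wnt3, Wnt4 and Wnt6, the receptors Fzd4, Fzd7, Fzd10 and Lgr4, the antagonists Sfrp5 and Notum, and the feedback inhibitor Nkd1. Of these 17 calls, 7 held in all 12 alternative analyses, those of Wnt8b, Fzd9, Rspo2, Rspo3, Wnt6, Fzd10 and Sfrp5. The other 10 calls ended when parietal-interparietal library 1 was left out and with the 2 parietal-interparietal libraries summed as 1 sample. They were also lost without parietal-interparietal library 2, except that of Wnt3. Leaving out 1 library changed the number called, with the fewest without a parietal-interparietal library and the most without frontal library 2. The number called over all genes moved the same way. Calls named below for a fit without a frontal library thus come from fits that called more of all genes. No called member changed sign in any alternative. The 2 groups did not overlap for 40 of the 59 members, with frontal libraries above for 18 and below for 22, and such separation was seen in 57.3% of all genes tested (28.9% above and 28.4% below).

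**Figure D1:**
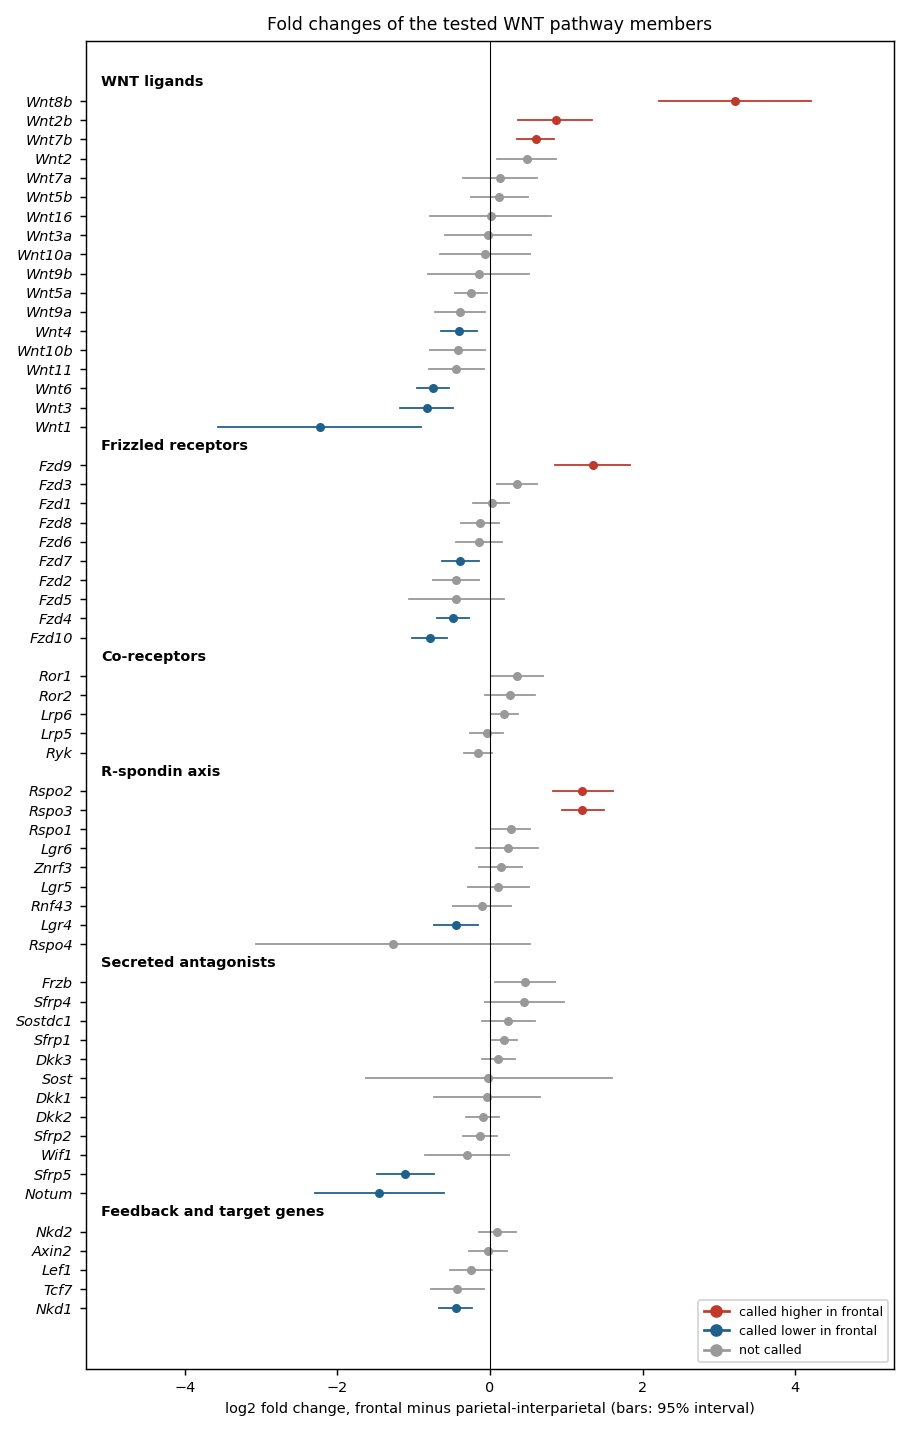
Log2 fold change, frontal minus parietal-interparietal, of the 59 tested members (points) with 95% intervals (bars), ordered within each role and coloured by call. Wnt8b stands highest at 3.21 and Wnt1 lowest at −2.23, and most antagonists and co-receptors lie near 0.

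The libraries held RNA of head tissues other than bone, and those tissues also differed between the groups. Of 12 forebrain markers 11 were higher, and their summed level per kilobase of exon was 122 and 131 CPM per kb in frontal libraries, against 21 and 20.4 in parietal-interparietal libraries. The forebrain factor Emx1, among the largest differences of the list, was at 21.3 and 18.9 CPM in frontal libraries, against 0.164 and 0 CPM in parietal-interparietal libraries. Bcl11b, also higher, differed less, at 65.6 and 75.5 CPM, against 51.3 and 52.3 CPM. Gad2, the marker not called, had 3.44 and 4.37 CPM, against 4.38 and 5.16 CPM. Markers of the choroid plexus and its roof plate summed to 658 and 687, against 40.5 and 39.6 CPM per kb, with 3 of 8 higher, and most of this was the transthyretin gene Ttr. Midbrain and hindbrain markers went the other way, with 6 of 11 tested lower and sums of 9.13 and 12.3, against 25.5 and 27.5 CPM per kb. All 8 sensory ganglion markers, 8 of 12 meningeal markers (1 higher) and 10 of 11 tested muscle markers were lower. The sums were 55.6 and 51.2, against 109 and 118 CPM per kb for sensory ganglion, and 459 and 455, against 664 and 666 CPM per kb for muscle. Of 12 epidermal markers 3 were lower, and of 12 osteoblast markers 2 were higher and 2 lower. Over all genes tested 12.7% were called. Of 8 markers of dermal mesenchyme 1 was higher and 4 lower, with sums of 466 and 460, against 435 and 434 CPM per kb. Most of these sums was Crabp1, the higher gene, at 310 and 270, against 234 and 230 CPM per kb. En1, among the lower genes, is also in the midbrain and hindbrain list. Of 8 cartilage markers 2 were lower, with sums of 59.4 and 60.3, against 75.7 and 71.3 CPM per kb. The osteoblast regulators Runx2 and Sp7 were present at 16.3 and 15.8 CPM and at 10.1 and 9.94 CPM in frontal libraries, against 13.5 and 10.7 CPM and 12.4 and 12.9 CPM in parietal-interparietal libraries. Bglap and Dmp1, genes of late osteoblasts and osteocytes, stayed under 1 CPM in every library. In such bulk tissue, fewer cells of a type and less RNA per cell cannot be told apart.

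**Figure D2:**
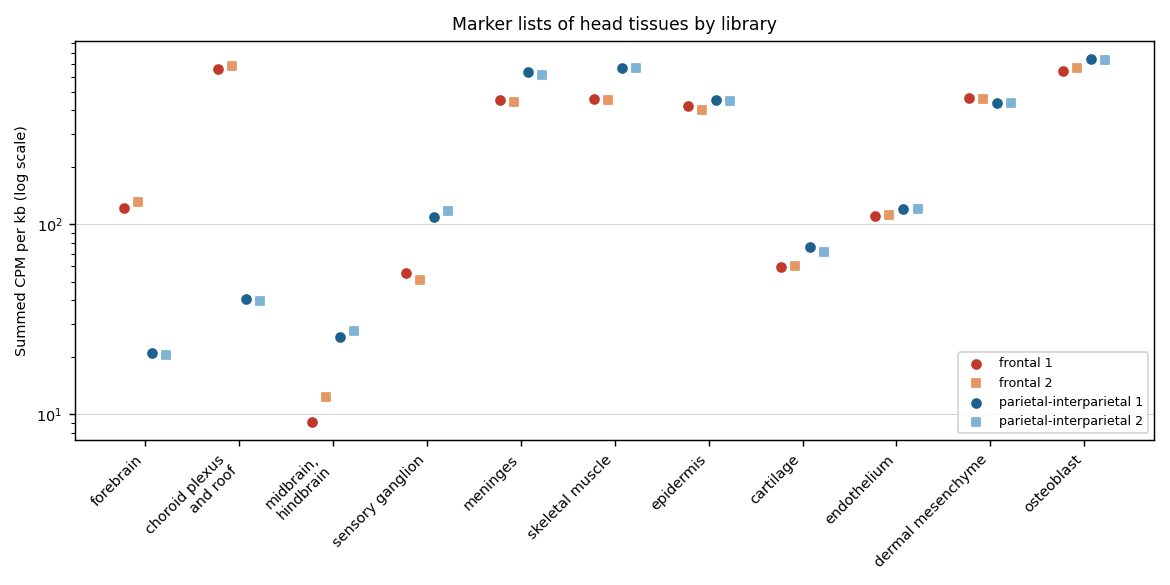
Summed level of each marker list (CPM per kb of exon, log scale) in the 4 libraries. Forebrain and choroid plexus sums are higher in both frontal libraries, and those of midbrain and hindbrain, sensory ganglion, meninges and muscle are lower.

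Promoter sequence is shown for the 3 members whose call held in every alternative and for which RefSeq (GRCm38.p6) and GENCODE place the start at the same base. Each is the 250 bases before the start, printed along the strand of the gene with CG dinucleotides in capitals. Wnt8b lies at chr19:44493222-44493471 (plus strand), Wnt6 at chr1:74771642-74771891 (plus strand) and Sfrp5 at chr19:42202253-42202502 (minus strand).
Wnt8b: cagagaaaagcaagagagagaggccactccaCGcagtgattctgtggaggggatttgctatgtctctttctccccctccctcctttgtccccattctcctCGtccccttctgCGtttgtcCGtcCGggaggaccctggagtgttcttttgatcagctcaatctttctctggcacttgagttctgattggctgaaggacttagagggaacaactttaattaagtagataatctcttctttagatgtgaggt
Wnt6: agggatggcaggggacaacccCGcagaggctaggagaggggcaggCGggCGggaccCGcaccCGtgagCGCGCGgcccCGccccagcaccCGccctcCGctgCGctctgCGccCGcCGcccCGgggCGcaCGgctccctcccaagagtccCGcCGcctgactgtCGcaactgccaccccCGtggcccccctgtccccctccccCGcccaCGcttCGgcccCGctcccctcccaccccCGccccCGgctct
Sfrp5: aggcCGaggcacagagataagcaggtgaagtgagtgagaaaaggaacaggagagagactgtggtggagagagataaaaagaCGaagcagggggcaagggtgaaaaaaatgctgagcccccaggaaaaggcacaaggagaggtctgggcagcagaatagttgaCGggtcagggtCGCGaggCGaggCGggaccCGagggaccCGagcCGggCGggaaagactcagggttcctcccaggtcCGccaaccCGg
The promoter of Wnt8b, higher in frontal libraries, held 5 CG dinucleotides at a GC content of 48.4%. The promoters of Wnt6 and Sfrp5, both lower, held 28 and 13 at 79.6% and 59.6%. RefSeq windows were matched for 41 members (49 windows, some genes having several starts), with a median of 16 CG dinucleotides, against 6 over all 32851 windows. Only 21 of the 41 members had a window at the GENCODE start. CG content did not follow the direction of the calls one to one, since Fzd9, a higher member, had 42 and Fzd10, a lower one, had 37. The windows of Fzd9 and Fzd10 precede RefSeq starts that lie inside the GENCODE genes, so they hold bases that GENCODE counts as transcribed.

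A form of the core that TCF and LEF factors bind reads CTTTGA on one strand and TCAAAG on the other. Only this form was searched, on both strands of the 250 bases before each RefSeq start. It was held by 7 of the 49 member windows (14.3%), against 13.8% of all windows. None of the 7 genes was called, against 28.8% of all tested members and 12.7% of all genes tested. So few genes allow no conclusion, and 19 members had no window to search. The windows of the target genes Axin2, Nkd1, Nkd2 and Tcf7 held no match to this form. The 30 bases around each match are given for the antagonists and targets that had one, with the core in capitals, since these genes report on or restrain the pathway. The sites are at chr19:30549653-30549682 and chr19:30549596-30549625 (Dkk1, minus strand), at chr2:80447474-80447503 (Frzb, minus strand), and at chr3:131156102-131156131 and chr3:131156162-131156191 (Lef1, plus strand, before a downstream start).
Dkk1, first site: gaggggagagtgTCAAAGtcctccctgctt
Dkk1, second site: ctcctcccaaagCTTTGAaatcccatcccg
Frzb: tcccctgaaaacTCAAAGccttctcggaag
Lef1, first site: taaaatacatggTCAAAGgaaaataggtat
Lef1, second site: cattgtctgttcTCAAAGtcaggtcttgca
By GENCODE the Frzb site, the second Dkk1 site and the Lef1 sites lie inside the genes, and the first Dkk1 stretch spans the gene start. These are matches of letters only, and factor binding was not measured in these samples.

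Of 18 tested ligands, 3 were higher, 4 lower and 11 not called, with a median log2 fold change of −0.11. Called ligands made up 38.9%, against 12.7% of all genes tested. Wnt8b, a signal of the cortical hem at the dorsal midline of the forebrain (ENSMUSG00000036961, chromosome 19, 44493472 to 44514273), had 9.32 and 9.14 CPM in frontal libraries, against 0.327 and 1.62 CPM in parietal-interparietal libraries. The frontal libraries were close together and far above the others, which rested on 8 and 44 counts. The log2 fold change was 3.21 ± 0.45 (SE; edgeR adjusted p = 0.00155). It was 2.50 without parietal-interparietal library 1 and 4.80 without library 2, so its size depends on which of these libraries is kept.

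Wnt2b and Wnt7b were higher by less. Wnt2b, also made in the cortical hem, had 15.7 and 10.1 CPM in frontal libraries, against 6.67 and 7.55 CPM in parietal-interparietal libraries. The groups did not overlap, but frontal library 1 stood well above frontal library 2. Its log2 fold change was 0.86 ± 0.22 (edgeR adjusted p = 0.0283), and 0.51 without frontal library 1. Wnt7b, a forebrain ligand that also acts on brain vessels, had 38.2 and 34.7 CPM in frontal libraries, against 24.4 and 23.9 CPM in parietal-interparietal libraries (a log2 fold change of 0.60 ± 0.11, adjusted p = 0.00654). Leaving out either parietal-interparietal library, or summing that pair, ended both calls. Forebrain and choroid plexus markers were higher in the same frontal libraries, as given above, and their part in these differences was not tested.

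Other ligands of the dorsal forebrain were not called. Wnt3a, the founding signal of the cortical hem, had 3.76 and 4.23 CPM in frontal libraries, against 3.76 and 4.38 CPM in parietal-interparietal libraries. These values overlap throughout, and the 95% interval of the log2 fold change ran from −0.59 to 0.54 (edgeR adjusted p = 0.962). Wnt7a, the close relative of Wnt7b, also overlapped, at 6.71 and 7.58 CPM, against 7.57 and 5.49 CPM (interval −0.35 to 0.62, adjusted p = 0.751).

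Wnt1, a signal of the midbrain-hindbrain boundary and the dorsal midline behind it, was the member with the lowest log2 fold change. It had 0.695 and 0.227 CPM in frontal libraries, against 1.64 and 2.62 CPM in parietal-interparietal libraries. These levels rested on 20 and 8 counts against 40 and 71 counts, and the groups did not overlap. The log2 fold change was −2.23 ± 0.60 (edgeR adjusted p = 0.0357). It was −3.21 without frontal library 1 and −1.62 without frontal library 2. Leaving out either parietal-interparietal library, or summing that pair, ended the call. Of 11 tested midbrain and hindbrain markers 6 were also lower and 5 were not called. En2, among those with the largest differences, was at 0.591 and 1.08 CPM in frontal libraries, against 14.1 and 14.9 CPM in parietal-interparietal libraries. Lmx1a, which was not called, had 9.98 and 15.2 CPM in frontal libraries, against 8.39 and 7.59 CPM. Their part in the Wnt1 difference was not tested.

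Wnt6, a ligand of surface ectoderm, was the most abundant ligand per length of exon and was lower in frontal libraries. It had 30.7 and 31.6 CPM in frontal libraries, against 53.1 and 51.5 CPM in parietal-interparietal libraries. Each pair of libraries was tight and the pairs were far apart, with a log2 fold change of −0.75 ± 0.10 (edgeR adjusted p = 0.000933), or 1.68-fold lower. Its share of all ligand RNA per length was 19.3% and 20.9% in frontal libraries, against 29.7% and 28.1% in parietal-interparietal libraries. Wnt3 had 8.21 and 7.50 CPM, against 14.7 and 13.3 CPM (−0.83 ± 0.16, adjusted p = 0.00739). Its call ended when parietal-interparietal library 1 was left out or the pair was summed. Wnt4, a ligand of several epithelia, had 36.5 and 32.1 CPM, against 44.1 and 46.8 CPM (−0.41 ± 0.11, adjusted p = 0.0308). Leaving out either parietal-interparietal library, or summing that pair, ended that call. Among epidermal markers Cdh1, Krt10 and Grhl3 were lower and 9 were not called, with summed levels of 420 and 399 in frontal libraries, against 452 and 445 CPM per kb. Meningeal markers summed to 455 and 439, against 632 and 615 CPM per kb. The part of either tissue in these differences was not tested.

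Wnt5a, the main ligand of the ROR receptors in mesenchyme, was not called. It had 58.7 and 66.8 CPM in frontal libraries, against 73.2 and 76.2 CPM in parietal-interparietal libraries, with an interval from −0.46 to −0.04 log2 units (edgeR adjusted p = 0.123). It was called lower without frontal library 2. The other uncalled ligands, Wnt2, Wnt5b, Wnt9a, Wnt9b, Wnt10a, Wnt10b, Wnt11 and Wnt16, had log2 fold changes between −0.44 (Wnt11) and 0.48 (Wnt2). Wnt2, Wnt9a, Wnt10b and Wnt11 were each called without at least 1 frontal library.

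**Figure D3:**
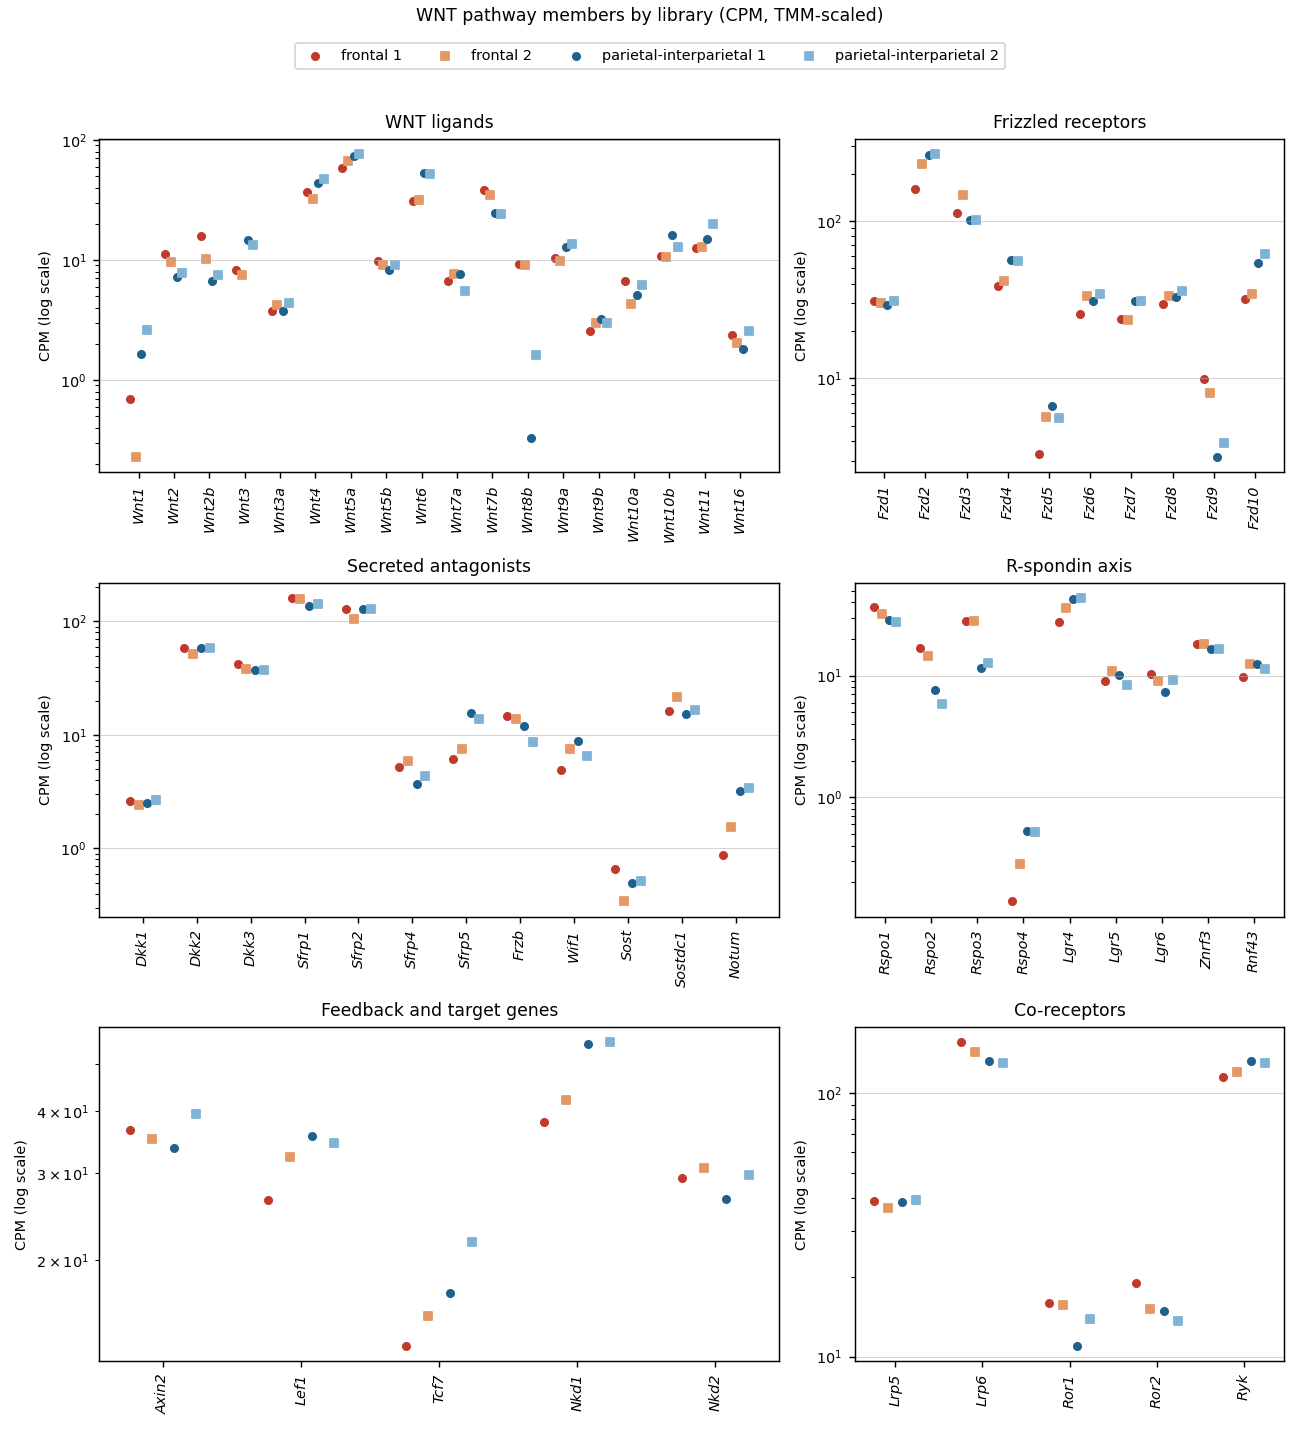
CPM of each tested member (log scale) in the 4 libraries, by role. Wnt8b, Fzd9, Rspo2 and Rspo3 lie higher in both frontal libraries, Wnt6, Fzd10 and Sfrp5 lie lower, and Wnt1 rests on few counts.

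Several WNT genes sit side by side in the genome, and 4 such pairs lay within 100 kb of each other. Wnt6 and Wnt10a are 6.19 kb apart on chromosome 1 (74771892 to 74785322 and 74791516 to 74804179, GRCm38). Wnt6 was lower, while Wnt10a, a ligand of skin and teeth, had 6.61 and 4.26 CPM in frontal libraries, against 5.07 and 6.23 CPM (log2 fold change −0.06). Wnt1 and Wnt10b are 11.7 kb apart on chromosome 15, at −2.23 (called) and −0.42 (not called). Wnt3 and Wnt9b are 24.3 kb apart on chromosome 11, at −0.83 (called) and −0.15 (not called). Wnt3a and Wnt9a, 16.2 kb apart on chromosome 11, were both uncalled at −0.03 and −0.39. In 3 of the 4 pairs 1 gene was called lower and its neighbour was not called. Of the 59 tested members 11 were called lower, against 6.44% of all genes tested. The 95% intervals of the uncalled neighbours ran from −0.65 to 0.52 (Wnt10a), −0.78 to −0.07 (Wnt10b) and −0.81 to 0.51 (Wnt9b). An uncalled gene thus need not differ from its called neighbour, and the difference between neighbours was not tested.

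The order of ligand levels was read per kilobase of exon, averaged over the 4 libraries. Wnt6 stood first at 19 CPM per kb, above the range of any other ligand, followed by Wnt4 at 9.51, Wnt5a at 8.78 and Wnt7b at 6.19. The ranges of Wnt4 and Wnt5a over libraries overlapped, as did those of Wnt5a and Wnt7b. From Wnt2 at 3.97 down to Wnt3a at 1.46 every neighbour overlapped the next. Wnt9b, Wnt1 and Wnt16 lay between 0.5 and 0.649 CPM per kb.

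**Figure D4:**
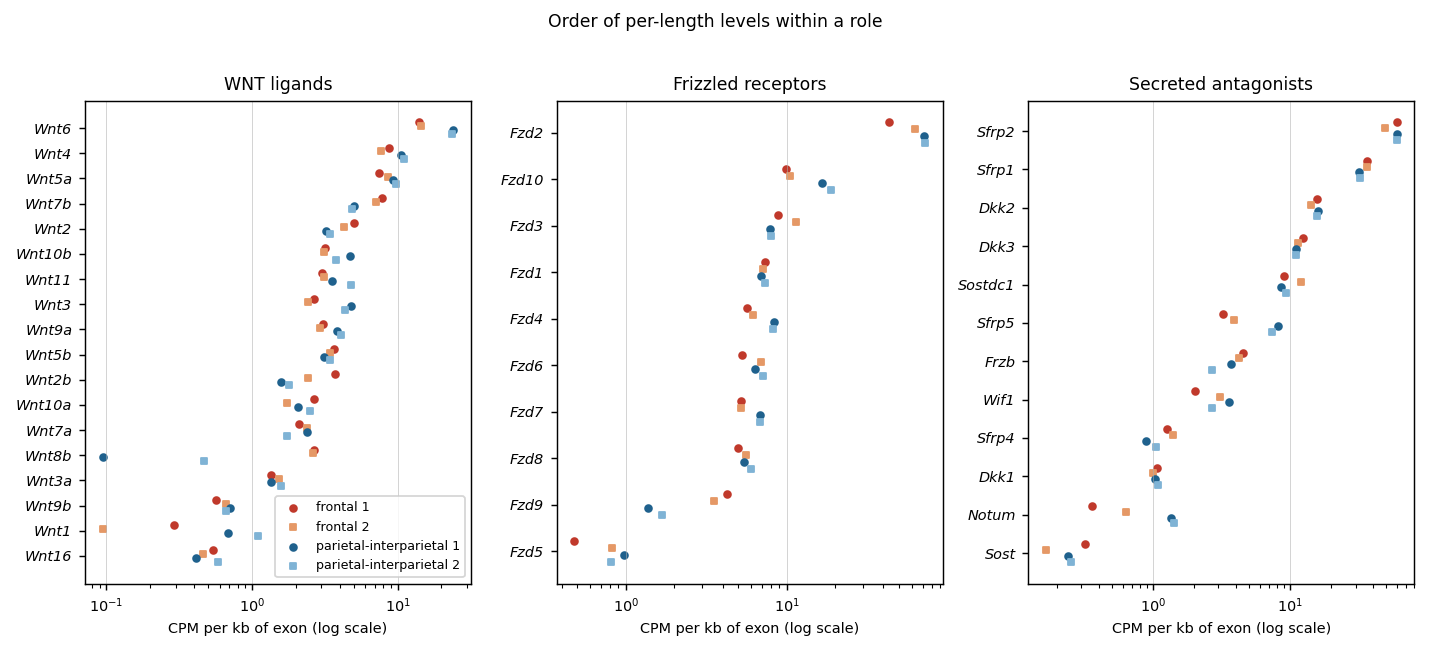
Per-length level (CPM per kb of exon, log scale) of ligands, Frizzled receptors and antagonists in the 4 libraries, ordered from top to bottom by their mean. Wnt6, Fzd2 and Sfrp2 head their groups, and the 4 libraries of most genes lie close together compared with the spread between genes.

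Among the 10 Frizzled receptors 1 was higher, 3 lower and 6 not called (40% called, against 12.7% of all genes tested). Fzd9, a receptor of neural progenitors (ENSMUSG00000049551, chromosome 5, 135248938 to 135251230), had 9.84 and 8.09 CPM in frontal libraries, against 3.15 and 3.87 CPM in parietal-interparietal libraries. The groups were well separated, with a 2.55-fold difference (log2 fold change 1.35 ± 0.22, edgeR adjusted p = 0.00384). Fzd10, a receptor prominent in the embryonic dorsal neural tube (ENSMUSG00000081683, chromosome 5, 128600844 to 128604093), had 32.1 and 34.3 CPM, against 53.8 and 61.2 CPM (−0.79 ± 0.10, adjusted p = 0.00106). These 2 receptors kept their calls in every alternative, and forebrain markers were higher, and midbrain and hindbrain markers lower, in the same frontal libraries. Their part was not tested.

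Fzd4, a receptor of vessels that also binds Norrin, had 38.3 and 41.3 CPM in frontal libraries, against 56.2 and 55.5 CPM in parietal-interparietal libraries (a log2 fold change of −0.49 ± 0.10, edgeR adjusted p = 0.00869). Fzd7, a widely expressed receptor, had 23.7 and 23.5 CPM, against 30.9 and 31.1 CPM (−0.39 ± 0.11, adjusted p = 0.0388). The groups did not overlap for either gene. Leaving out either parietal-interparietal library, or summing that pair, ended both calls, and DESeq2 did not call Fzd7. Of 8 endothelial markers 1 was higher and 1 lower (25% called, against 12.7% of all genes tested). Their sums were 111 and 112, against 121 and 120 CPM per kb. The lower marker, Cdh5, had 78.8 and 77.7 CPM in frontal libraries, against 123 and 118 CPM. The higher one, Cldn5, had 38.7 and 39.0 CPM, against 28.8 and 29.4 CPM. The part of vessels in the Fzd4 difference was not tested.

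Fzd2, a mesenchymal receptor, was by far the most abundant Frizzled at 62.6 CPM per kb, against 14 for Fzd10 and 9.04 for Fzd3. The last 2 overlapped, with means of 10.2 and 10.1 CPM per kb in frontal libraries, against 17.7 and 7.95 in parietal-interparietal libraries. Its level was 160 and 229 CPM in frontal libraries, against 262 and 266 CPM in parietal-interparietal libraries. The 2 frontal libraries differed from each other more than the parietal-interparietal ones, and the gene was not called (log2 fold change −0.44 ± 0.14, edgeR adjusted p = 0.0600). It was called lower without frontal library 1 (−0.21), without frontal library 2 (−0.74), with no filter and with a replicate block. Fzd3, a receptor of axon guidance and cell polarity, had 113 and 147 CPM, against 101 and 102 CPM (0.35 ± 0.12, adjusted p = 0.0782). It was called higher without frontal library 1, with no filter, with a replicate block and in DESeq2. Fzd1 had 30.9 and 29.9 CPM, against 29.2 and 30.8 CPM, with an interval from −0.22 to 0.25 log2 units. Fzd5, Fzd6 and Fzd8 overlapped between groups, at −0.44, −0.15 and −0.13 log2 units, and the first 2 of these were called lower without frontal library 2 (−0.90 and −0.36).

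The co-receptors showed the smallest range of any role, from −0.16 to 0.35 log2 units, and 0 of 5 were called by edgeR or by DESeq2. At an unadjusted p under 0.05 there were 2 of 5, Lrp6 and Ror1, where 27.1% of all genes tested reached that level. Lrp6, a β-catenin pathway co-receptor, had 156 and 144 CPM in frontal libraries, against 133 and 130 CPM in parietal-interparietal libraries (a log2 fold change of 0.19 ± 0.08, edgeR adjusted p = 0.168), and was called higher without either frontal library. Lrp5, its relative, had 39.0 and 36.6 CPM, against 38.7 and 39.3 CPM (interval −0.26 to 0.17). Ryk, a receptor with an inactive kinase domain, led the role per length at 27.5 CPM per kb and had 115 and 121 CPM, against 133 and 130 CPM (adjusted p = 0.230), and was called lower without frontal library 2. Ror1 and Ror2, receptors for WNT5A, had log2 fold changes of 0.35 ± 0.15 and 0.26 ± 0.15, and Ror2 was called higher without frontal library 2 (0.40).

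R-spondins, secreted agonists of the pathway, were higher in frontal libraries for 2 of 4 genes. Rspo3 (ENSMUSG00000019880, chromosome 10, 29452416 to 29535867) had 28.0 and 28.3 CPM in frontal libraries, against 11.6 and 12.6 CPM in parietal-interparietal libraries. Both pairs of libraries were tight and far apart, at 2.32-fold (log2 fold change 1.21 ± 0.12, edgeR adjusted p = 0.000282), the smallest p among the members. Rspo2 (ENSMUSG00000051920, chromosome 15, 43020794 to 43170826) had 17.0 and 14.4 CPM, against 7.61 and 5.90 CPM, also 2.32-fold higher (1.21 ± 0.18, adjusted p = 0.00201). Rspo1, the most abundant R-spondin at 16.1 CPM per kb, had 36.5 and 32.1 CPM, against 28.7 and 27.8 CPM (0.28 ± 0.11, adjusted p = 0.135). Without frontal library 2 it was called higher (0.36). Rspo4 was near the floor, at 4 and 10 counts, against 13 and 14 counts. Summed over the 4 genes per length, R-spondin RNA was 31.2 and 28.7 CPM per kb in frontal libraries, against 20.3 and 19.8 CPM per kb in parietal-interparietal libraries. Forebrain and choroid plexus sums were higher in the same frontal libraries (122 and 131, against 21 and 20.4, and 658 and 687, against 40.5 and 39.6 CPM per kb), and their part was not tested.

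Of the 5 receptors and ligases on which R-spondins act, 1 was lower and 4 were not called. In the whole R-spondin axis of 9 genes 3 were called (33.3%, against 12.7% of all genes tested). Lgr4, the most abundant LGR receptor at 6.36 CPM per kb, had 27.6 and 35.8 CPM in frontal libraries, against 43.1 and 43.3 CPM in parietal-interparietal libraries (a log2 fold change of −0.44 ± 0.13, edgeR adjusted p = 0.0461). Its value was −0.65 without frontal library 2 and −0.27 without frontal library 1. The call did not hold without either library of the parietal-interparietal pair, or with that pair summed. Lgr5 and Lgr6 were not called, at 0.11 ± 0.18 and 0.23 ± 0.18. Znrf3, the ligase that removes Frizzleds from the surface, had 18.3 and 18.3 CPM, against 16.6 and 16.7 CPM (interval −0.14 to 0.42), and its relative Rnf43 overlapped between groups (interval −0.48 to 0.27). The 3 LGR genes together summed to 7.08 and 8.47, against 9.39 and 9.52 CPM per kb.

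Of the 12 secreted antagonists 2 were lower, 10 were not called and none was higher, in edgeR or in DESeq2. An unadjusted p under 0.05 was reached by 4, or 33.3%, close to the 27.1% of all genes tested. They were these 2 and, with positive values, Sfrp1 and Frzb. Sfrp5, a secreted Frizzled-related protein that binds WNTs (ENSMUSG00000018822, chromosome 19, 42197971 to 42202252), had 6.19 and 7.44 CPM in frontal libraries, against 15.5 and 13.9 CPM in parietal-interparietal libraries. That is 2.15-fold lower (log2 fold change −1.11 ± 0.17, edgeR adjusted p = 0.00229), and the groups were well apart. Notum, an enzyme that strips the lipid from WNTs and is itself induced by the pathway, had 0.869 and 1.53 CPM, against 3.23 and 3.39 CPM (−1.45 ± 0.38, adjusted p = 0.0332). It rested on 25 and 54 counts, against 79 and 92 counts, and was −1.93 without frontal library 2. Leaving out either parietal-interparietal library, or summing that pair, ended its call. Antisense genes cover 29.4% and 8.72% of its exons, and without a stated strand setting their reads cannot be told apart from its own. Notumos, the larger overlap, had 2 and 8 counts in frontal libraries, against 22 and 14 counts in parietal-interparietal libraries. Antisense genes also cover 13.1% of the exons of Rspo3, 6.61% of Wnt7b, 16.1% of Sfrp2 and 13.7% of Lef1, with at most 68 counts of their own in a library and 0 for the partner of Rspo3.

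The most abundant antagonists were not called. Sfrp2, the highest at 57.2 CPM per kb, had 129 and 106 CPM in frontal libraries, against 129 and 129 CPM in parietal-interparietal libraries (interval −0.36 to 0.09 log2 units), and was called lower without frontal library 1 (−0.28). Sfrp1, next at 34.2 CPM per kb, had 160 and 158 CPM, against 138 and 142 CPM (log2 fold change 0.19 ± 0.08, edgeR adjusted p = 0.147), and was called higher without either frontal library. Dkk2, an LRP5 and LRP6 ligand of craniofacial mesenchyme, had 58.1 and 52.1 CPM, against 58.8 and 58.7 CPM (interval −0.31 to 0.12). Dkk1, the classic inhibitor of the same co-receptors, was low and close at 2.61 and 2.41 CPM, against 2.50 and 2.65 CPM. Sost, which encodes the osteocyte product sclerostin, had between 12 and 19 counts in every library. Dkk3, Sfrp4, Frzb, Wif1 and Sostdc1 were not called, with log2 fold changes between −0.30 (Wif1) and 0.46 (Frzb). Frzb was called higher without either frontal library, Sostdc1 higher without frontal library 1 (0.43) and Wif1 lower without frontal library 2 (−0.66).

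Of the 5 feedback and target genes of β-catenin signalling, 1 was lower and 4 were not called (20% called, against 12.7% of all genes tested). Axin2, the most widely used target and a scaffold that damps the pathway, had 36.7 and 35.2 CPM in frontal libraries, against 33.8 and 39.5 CPM in parietal-interparietal libraries. The groups overlapped, and the log2 fold change of −0.03 had an interval from −0.28 to 0.22 (edgeR adjusted p = 0.901). Nkd1, an inducible inhibitor that binds Dishevelled, had 38.1 and 42.1 CPM, against 54.7 and 55.2 CPM (−0.45 ± 0.10, adjusted p = 0.0137). No such call was made without either library of the parietal-interparietal pair, or with that pair summed. Nkd2 overlapped between groups at 29.3 and 30.7 CPM, against 26.6 and 29.7 CPM. The transcription factors Lef1 and Tcf7 were not called, at −0.25 ± 0.12 and −0.43 ± 0.15, and both were called lower without frontal library 2. Per length Nkd1 led at 10.4 CPM per kb, above Axin2 at 6.59 and Tcf7 at 6.44. Axin2 and Tcf7 overlapped, with Axin2 above in frontal libraries (6.53 and 5.49) and Tcf7 above in parietal-interparietal libraries (6.66 for Axin2 and 7.38 for Tcf7).

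**Figure D5:**
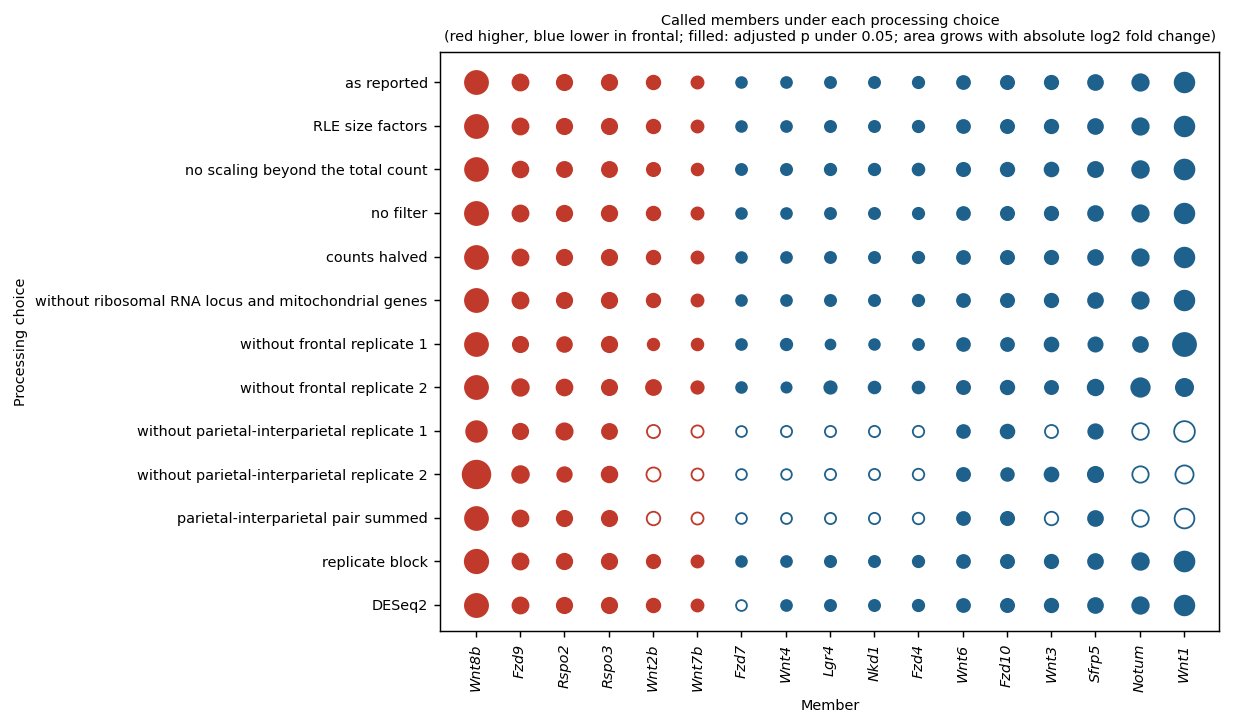
The 17 called members (columns) under the reported analysis and 12 alternatives (rows). Filled symbols have an adjusted p under 0.05, red is higher and blue lower in frontal, and area grows with the absolute log2 fold change. Open symbols gather in the rows that leave out or sum parietal-interparietal libraries, and 7 members stay filled in every row.

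Beyond the members, 65 further genes of WNT secretion, surface modulation, the cytoplasmic cascade, nuclear factors and planar polarity were all tested, and 6 were higher and 8 lower. The called share was 21.5%, against 12.7% of all genes tested and 16.8% of protein-coding genes averaging 1 CPM or more. These 65 genes had a median level of 46.9 CPM, against 9.78 CPM for all genes tested. Their median log2 fold change was −0.12. When 1 library was left out, the fewest were called without a parietal-interparietal library and the most without frontal library 2, as over all genes. Porcn and Wls, which lipid-load and carry WNTs out of the cell, were not called in edgeR or DESeq2, and 1 of them, Porcn, had an unadjusted p under 0.05.

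Of 17 surface modulators 1 was higher and 1 lower (11.8%, against 12.7% of all genes tested). Draxin, a secreted antagonist and axon guidance protein of the brain, had 47.1 and 47.1 CPM in frontal libraries, against 27.9 and 32.1 CPM in parietal-interparietal libraries (a log2 fold change of 0.65 ± 0.11, edgeR adjusted p = 0.00361). Its call ended when parietal-interparietal library 1 was left out or the pair was summed. Cthrc1, a secreted cofactor of polarity signalling, had 55.7 and 82.5 CPM, against 131 and 138 CPM (−0.96 ± 0.15, adjusted p = 0.00270). Of 21 cytoplasmic genes 1 was higher and 3 lower (19%, against the same 12.7%). Dact3, a Dishevelled antagonist, had 28.3 and 36.5 CPM, against 63.5 and 57.7 CPM (−0.90 ± 0.13, adjusted p = 0.00152). Ccdc88c, which encodes the Dishevelled-binding protein DAPLE, was higher at 0.75 ± 0.11, and Dvl3 was lower at −0.35 ± 0.09. The Dvl3 call did not hold without either library of the parietal-interparietal pair or with the pair summed. Ctnnb1, the β-catenin gene itself, had 366 and 329 CPM, against 324 and 315 CPM (adjusted p = 0.366).

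Of 13 nuclear genes 3 were lower and none higher in edgeR or DESeq2, with 4 at an unadjusted p under 0.05 (30.8%, against 27.1% of all genes tested). The lower genes were Tcf7l2, a TCF factor, the cyclin gene Ccnd1 and the β-catenin cofactor Bcl9l. Their log2 fold changes were −0.49 ± 0.09, −0.34 ± 0.08 and −0.34 ± 0.09. None of these 3 calls held without either library of the parietal-interparietal pair or with the pair summed. Of 12 planar polarity genes 4 were higher and 1 lower (41.7% called, against 12.7% of all genes tested). Celsr1, a large cadherin of the polarity complex, had 81.4 and 71.0 CPM in frontal libraries, against 48.6 and 48.0 CPM in parietal-interparietal libraries (0.66 ± 0.10, edgeR adjusted p = 0.00223), and kept its call in every alternative. Celsr2 and the polarity core gene Vangl2 were higher at 0.51 ± 0.10 and 0.37 ± 0.09. Neither call held without either library of that pair or with it summed, and Vangl2 was also not called when only total counts set the scale. The lower gene was Vangl1, at −0.41 ± 0.11, and the median log2 fold change of the 12 genes was −0.03. DESeq2 did not call Vangl1, and its values ran from −0.48 to −0.35 over the alternatives. Neural progenitors express Celsr1, Celsr2 and Vangl2, and forebrain markers were higher in the same libraries. Their part was not tested.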

How the data were processed

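The deposited table holds raw counts, whole numbers per Ensembl gene for each of the 4 libraries, not normalized by the authors. Per the submitters' processing notes the tools were Trim Galore 0.6.7, HISAT2 2.1.0 and featureCounts 2.0.1 with GRCm38; for settings, annotation release and strand handling, the sources used here give nothing. Totals were 29598388 and 35555013 in frontal and 24069177 and 26645504 in parietal-interparietal libraries, where 3 counts equal 0.104, 0.0852, 0.123 and 0.111 CPM. Among genes with 1 to 20 counts, between 68.3% and 74.4% of counts were even, so halved counts were also analysed.

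Symbols, positions and exon lengths came from GENCODE M21 (55227 of 55487 IDs matched). Genes passing filterByExpr (minimum count 10) went through TMM scaling and the two-sided quasi-likelihood test of edgeR 4.0.16 under R 4.3.3. The model held the group alone, which leaves 2 residual degrees of freedom. Benjamini-Hochberg adjustment ran over 20947 genes, with calls at 0.05. Dividing the size of a log2 fold change by the root of its F statistic gave its standard error, and 95% intervals use the moderated degrees of freedom. The test was checked on simulated data. DESeq2 1.42.0 was an alternative. The members, lists and tests were chosen with earlier results of these data known. All 60 members are accounted for: called ones and up to 3 of each role with the highest per-length level get values in every library, and other members described singly were chosen after their values were seen. From the wider pathway up to 3 called genes a list are named by smallest p. Porcn, Ctnnb1 and Vangl1 were named after their values were seen. Figures used matplotlib 3.10.9.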

Additional observations from a re-analysis of the deposited data

How the results depend on the processing

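Over all genes 2657 were called, between 865 and 7279 without 1 library and 791 with the parietal-interparietal pair summed. Members called higher numbered 6, and 4 to 12 without 1 library. Members called lower numbered 11, and 3 to 21 without 1 library and 3 with the pair summed. A fit without 1 library takes its spread from the pair left whole, so the lone library is assumed to vary like the other group. Of the frontal pair and the parietal-interparietal pair, the frontal one gave fewer calls when it alone set the spread. The replicate numbers pair no samples by the labels, and deviations of same-numbered libraries correlated at 0.0179 over tested genes; with the replicate block 3306 genes were called, with 7 members higher and 12 lower. With no scaling beyond the total count the share of called genes that were higher was 38.0%, against 49.3% with TMM, and the same 17 members were called. Size factors of the RLE kind, halved counts and leaving out the ribosomal RNA locus and mitochondrial genes also kept the 17 calls, and DESeq2 kept 16. Sign changes touched 11 members, none of them called. Outside single-library settings these were Wnt16 at −0.05 and Fzd1 at −0.03 with no scaling, and Wnt16 at −0.01 with the pair summed. Without 1 library Wnt3a ranged from −0.13 to 0.08, Wnt7a from −0.09 to 0.38, Wnt10a from −0.41 to 0.21, Wnt16 from −0.22 to 0.28, Fzd1 from −0.02 to 0.06, Fzd6 from −0.36 to 0.03, Lgr5 from −0.05 to 0.24, Rnf43 from −0.31 to 0.06, Dkk1 from −0.09 to 0.01, Sost from −0.56 to 0.38 and Axin2 from −0.14 to 0.08. The cause of these shifts was not tested. Wnt1, Wnt8a, Wnt16, Rspo4, Dkk1, Sost and Notum had under 100 counts in every library, which limits the precision of their values; Wnt1 and Notum kept their calls with halved counts.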
